A study of Mus musculus with 12 samples.

Results

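The immediate early transcription factor genes *Fos*, *Fosb*, *Fosl1*, *Fosl2*, *Jun*, *Junb*, *Jund*, *Egr1*, *Ier2* and *Atf3* were followed through RNAseq and ribosome profiling of mouse embryonic fibroblasts (MEFs). These 10 genes were taken by name and not by a measured value, although earlier results of these data were known at the time. All 10 were found among the 20661 genes counted. The MEFs fell into 3 groups, each with 2 replicates per assay, which gave 12 libraries. WT-shSCR cells are wild-type MEFs carrying a control hairpin, shSCR, and WT-shARF cells are wild-type MEFs carrying a hairpin against *Arf*. ArfKO-shSCR cells are *Arf*-null MEFs of the strain B6.129X1-Cdkn2atm1Cjs/KaiJ carrying shSCR. The study asked how loss of the tumor suppressor ARF alters translation. All groups were at passage 4, were transduced with lentivirus and were grown in medium with fetal bovine serum, so serum was present throughout and no serum starvation or restimulation is described. For the wild-type cells the strain is C57BL/6J by the labels and B6129SF2/J by the methods, and neither is the strain of the *Arf*-null cells. The *Arf*-null allele replaces the first exon that is specific to ARF, is carried by every cell of the culture and was not induced in the dish. Neither the labels nor the methods say whether the replicates are separate cultures, so p-values measure only the spread between these libraries.

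Immediate early genes are induced within minutes of serum, growth factor or stress signals, without new protein synthesis, through serum response factor with its partner Elk proteins and through CREB. Their mRNAs and proteins turn over quickly, in many of them because AU-rich elements in the 3′ untranslated region (3′UTR) recruit mRNA decay factors. FOS and JUN proteins carry a basic leucine zipper (bZIP) and pair to form the transcription factor AP-1, in which JUN proteins can also pair with each other while FOS proteins need a JUN partner. EGR1 is a zinc finger factor, ATF3 is a stress-induced bZIP factor that can pair with JUN proteins, and IER2 is a small nuclear protein. In growing fibroblasts JUND and FOSL2 are known as comparatively steady AP-1 proteins, whereas FOS and FOSB appear briefly after a stimulus.

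The AU-rich nonamer TTATTTATT was searched on the mRNA strand of the annotated 3′UTRs (GENCODE M21, GRCm38). It was found once each in *Fos* and *Fosl2* and in none of the other 8 members, against 6.99% of 19062 genes with a 3′UTR. The shorter pentamer ATTTA, which lies inside the nonamer, was found in 9 members, with *Ier2* the exception, against 62.7% of those genes. *Fos* held 4 pentamers in 815 nt of 3′UTR and had the highest density of the 10 members, 4.91 per kb, while the median gene had 1.16 per kb. The sites of the nonamer are shown because *Fos* is the member that edgeR called lower in footprints of both ARF groups and *Fosl2* is the most abundant FOS family member here. They are written 5′ to 3′ with 10 bases on each side. The nonamer is in capitals, and its first base is base 655 and base 3692 of the 3′UTR, respectively.
*Fos*: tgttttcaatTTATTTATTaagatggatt
*Fosl2*: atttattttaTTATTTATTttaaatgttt
A match of these letters is a description of the transcript and was not tested as a decay site.

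The members also shared coding features that the choice did not use. *Jun*, *Junb*, *Jund* and *Ier2* each have a single exon, as 5.54% of genes with a coding transcript do. The coding sequence of *Jund* had a GC content of 70.7%, the 99.5th percentile of genes, and in 9 of the 10 members the GC content exceeded the median gene's 52.1%. *Atf3*, at 51.0%, was below it.

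Sequencing depth limits this gene class. Counts on genes ranged from 1578627 to 3989908 in the RNAseq libraries and from 2544319 to 5157572 in the ribosome profiling libraries, and 79.2% to 81.4% of RNAseq alignments but 46.3% to 52.9% of footprint alignments were set aside as not unique. *Cdkn2a*, the gene that encodes ARF and, in another frame, INK4A, went against the hairpin label. Its RNA averaged 43.1 ± 2.42 CPM in WT-shSCR but 657.7 ± 28.5 CPM in WT-shARF (SD, n = 2 each), so every direction given for WT-shARF is a direction by label. Counts per gene do not separate ARF from INK4A. The paper shows the ARF knockdown at the protein level, by immunoblot. The 8 fibroblast markers summed to 21350 to 24460 CPM of RNA in WT-shSCR, 22070 to 22440 in WT-shARF and 16340 to 17450 in ArfKO-shSCR. *Pdgfra* was low among them, at a mean of 3.16, 3.05 and 17.2 CPM of RNA in the same order. Macrophage markers differed between the groups as well. The 14 macrophage markers summed to 734.1 to 761.1 CPM of RNA in WT-shSCR, 292.3 to 381.7 in WT-shARF and 70.3 to 119.4 in ArfKO-shSCR. Of these markers, *Aif1* was at 0 in the ArfKO-shSCR RNAseq libraries.

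**Figure D1:**
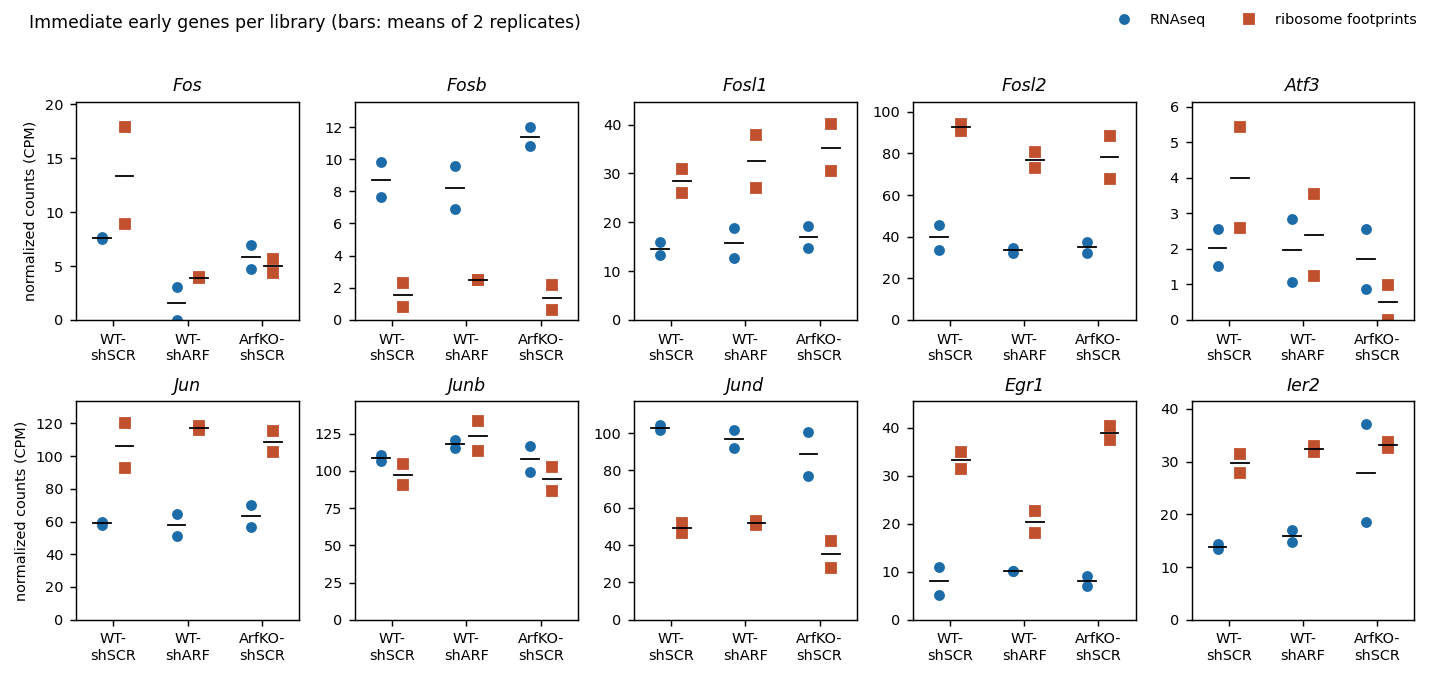
Normalized counts (CPM, linear axes from 0) of the 10 genes in each RNAseq library (circles) and ribosome profiling library (squares) of the 3 groups, with bars for the mean of 2 replicates. *Fos* footprints are highest in both WT-shSCR libraries, *Egr1* footprints are lowest in both WT-shARF libraries, and *Atf3* stays under 6 CPM throughout.

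The JUN family, the partners of FOS proteins in AP-1, held the highest RNA levels of the class, and no change of a JUN family gene between groups passed the test. Counts were scaled to normalized counts (CPM, after TMM scaling of library sizes) and compared between genes only per kilobase (kb) of coding sequence. On that scale *Junb* RNA was 105.6 ± 2.65 CPM per kb in WT-shSCR, 114.2 ± 3.64 in WT-shARF and 104.7 ± 11.9 in ArfKO-shSCR (SD, n = 2 each). *Jund* followed with 100.6 ± 2.17, 94.6 ± 6.34 and 87.0 ± 16.3 CPM per kb in the same order, and the replicates of *Junb* and *Jund* overlapped only in ArfKO-shSCR. *Jun* followed *Jund* in every group, at 57.7 to 63.3 CPM per kb as group means, with replicates apart from both neighbors.

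The order changed in the footprints, which count ribosomes on the coding sequence. *Jun* footprints were 106.1 ± 19.5 CPM per kb in WT-shSCR, 117.1 ± 1.55 in WT-shARF and 108.7 ± 9.14 in ArfKO-shSCR (SD, n = 2 each). *Jund* footprints were 48.1 ± 3.78, 50.8 ± 1.36 and 34.3 ± 10.1 CPM per kb. Thus *Jund* exceeded *Jun* in all 6 RNAseq libraries, and *Jun* exceeded *Jund* in all 6 ribosome profiling libraries. Within the JUN family, *Jund* made up 34.0% to 38.0% of RNA as group means but 14.5% to 19.5% of footprints, while *Jun* made up 21.6% to 25.0% of RNA and 40.8% to 46.5% of footprints. *Junb* held a similar share of both, 39.8% to 42.8% of RNA and 38.0% to 41.6% of footprints.

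Per library, *Jund* footprints were 46.4 and 51.9 CPM in WT-shSCR, 53.0 and 51.0 in WT-shARF, and 42.4 and 27.8 in ArfKO-shSCR. Both ArfKO-shSCR values were below all 4 others, and the replicates within ArfKO-shSCR were far apart. The log2 fold change against WT-shSCR was -0.52 ± 0.21 (SE), with a Benjamini-Hochberg adjusted p = 0.088 (edgeR), and against WT-shARF it was -0.59 ± 0.20 (edgeR adjusted p = 0.078). *Jund* therefore did not pass the threshold of 0.05 in either. With no library left out, the 95% interval of the difference from WT-shSCR, -0.52, ran from -0.93 to -0.10. Without the first ArfKO-shSCR library the log2 fold changes were -0.85 against WT-shSCR and -0.93 against WT-shARF. *Jund* RNA was 101.4 and 104.5 CPM in WT-shSCR and 77.2 and 100.8 in ArfKO-shSCR, a log2 difference of -0.23 with an interval from -0.60 to 0.15.

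*Junb* footprints were 104.5 and 90.6 CPM in WT-shSCR, 133.6 and 113.6 in WT-shARF, and 102.6 and 86.6 in ArfKO-shSCR. Both WT-shARF libraries were above the other 4. The log2 difference of WT-shARF from WT-shSCR was 0.32 ± 0.15 (edgeR adjusted p = 0.17), and that of ArfKO-shSCR from WT-shARF was -0.41 ± 0.14 (edgeR adjusted p = 0.077). Neither passed, although with no filter on low counts the second did for both *Junb* (-0.41, adjusted p = 0.046) and *Jund* (-0.59, adjusted p = 0.037), and without the first ArfKO-shSCR library *Junb* was at -0.54 (adjusted p = 0.030). The *Jun* footprint difference between ArfKO-shSCR and WT-shSCR was -0.00 with an interval from -0.29 to 0.29, and the *Jun* RNA difference was 0.09 with an interval from -0.32 to 0.51.

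**Figure D2:**
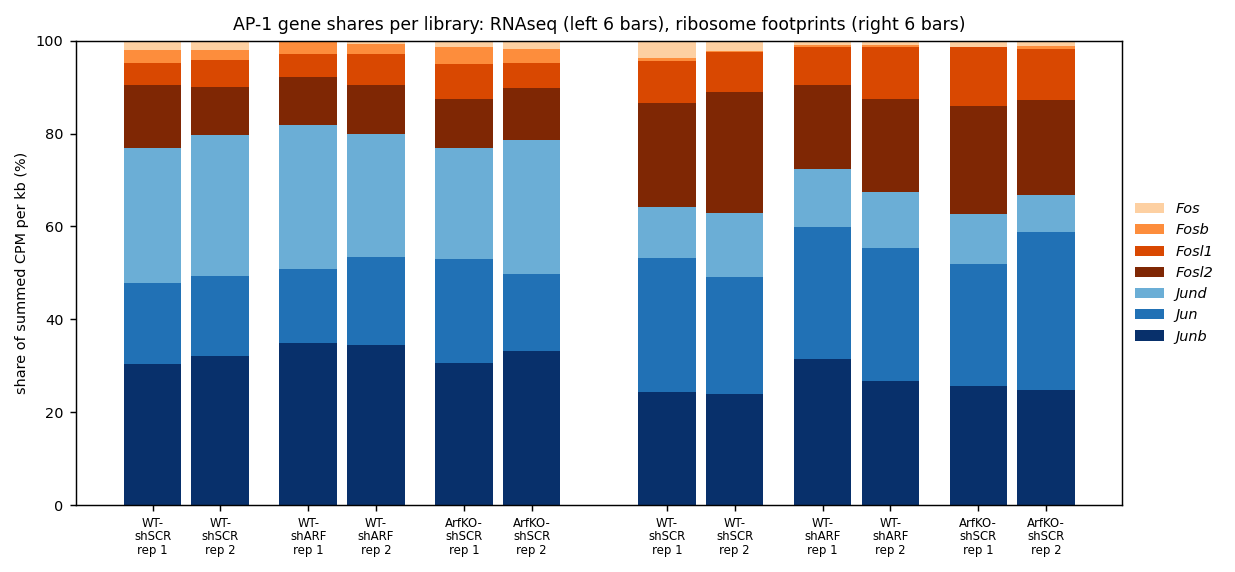
Share of each of 7 AP-1 genes (percent of their summed CPM per kb of coding sequence) in every RNAseq library (left) and ribosome profiling library (right), stacked to 100%. Blue JUN family segments make up 76.9% to 81.8% of RNA and 62.7% to 72.4% of footprints, and the *Fos* segment at the top is largest in the WT-shSCR footprint libraries.

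The FOS family, the partners of JUN proteins in AP-1, took the remaining part of the AP-1 total. Its share was 19.1% to 22.3% of RNA and 30.1% to 36.5% of footprints as group means, higher in each ribosome profiling library than in any RNAseq library. *Fosl2* led it, at 49.1% to 54.8% of FOS family RNA and 62.0% to 66.5% of FOS family footprints. *Fosl1*, a member linked to proliferating and transformed fibroblasts, was second, at 24.5% to 30.3% of RNA and 24.3% to 33.4% of footprints. These shares, too, are group means per kb of coding sequence.

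*Fosl2* footprints were 90.9 and 94.1 CPM in WT-shSCR, 72.8 and 80.9 in WT-shARF, and 88.5 and 67.9 in ArfKO-shSCR. Both WT-shSCR libraries were the highest of the 6, by a narrow margin over the first ArfKO-shSCR library. The log2 differences from WT-shSCR were -0.28 ± 0.16 in ArfKO-shSCR (edgeR adjusted p = 0.24) and -0.27 ± 0.16 in WT-shARF (edgeR adjusted p = 0.31), and neither passed. *Fosl1* footprints ranged from 25.9 to 40.0 CPM with overlapping groups, and its log2 difference in ArfKO-shSCR was 0.27 with an interval from -0.18 to 0.73.

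*Fos*, the prototype immediate early gene, was the one member that edgeR called in footprints of both ARF groups against WT-shSCR, and DESeq2 called it in neither. The gene spans bases 85473890 to 85477273 of chromosome 12 (GRCm38, plus strand). Its footprints were 17.9 and 8.91 CPM in WT-shSCR, 3.91 and 3.95 CPM in WT-shARF, and 5.69 and 4.33 CPM in ArfKO-shSCR, from 55 and 23, 11 and 19, and 29 and 22 reads. Both WT-shSCR libraries were above all others, and the first was far above the second. The log2 fold change against WT-shSCR was -1.46 ± 0.47 in ArfKO-shSCR (edgeR adjusted p = 0.027) and -1.78 ± 0.53 in WT-shARF (edgeR adjusted p = 0.022). Both comparisons share the same WT-shSCR libraries. ArfKO-shSCR and WT-shARF differed from each other by 0.32 ± 0.57, with an interval from -0.80 to 1.44.

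*Fos* RNA was at 7.54 and 7.65 CPM in WT-shSCR, 0 and 3.09 CPM in WT-shARF, and 4.73 and 6.92 CPM in ArfKO-shSCR. The WT-shSCR libraries were again the highest, and the WT-shARF libraries were the lowest. The first WT-shARF library held 0 reads, which allows up to 1.65 CPM at its depth (3 reads), and this limit covers counting error only. The RNA difference was -1.95 ± 0.70 in WT-shARF (edgeR adjusted p = 0.085) and -0.40 ± 0.54 in ArfKO-shSCR (edgeR adjusted p = 0.72), so neither passed. *Fos* entered the WT-shARF RNA test only through its level in WT-shSCR. Its translation efficiency (TE, footprints relative to RNA) differed by -1.08 ± 0.72 in ArfKO-shSCR and 0.19 ± 0.95 in WT-shARF (edgeR adjusted p = 0.83 and 0.99), with 0 calls.

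The *Fos* footprint calls rest on few reads. With DESeq2 the log2 fold change in ArfKO-shSCR was -1.45 (adjusted p = 0.082). Without the first WT-shSCR library, which holds 55 of the 78 control reads, edgeR gave -0.85 in ArfKO-shSCR and -1.19 in WT-shARF. In ArfKO-shSCR the call was lost whichever of the 4 libraries was left out. Without either WT-shSCR library the other genes lost their calls there too, so that loss is not particular to *Fos*. In WT-shARF the call was kept only without the second WT-shSCR library (-2.18). Summed footprints of the 14 macrophage markers moved in the same direction. They were 857.7 to 867.2 CPM in WT-shSCR, 330.8 to 408.6 in WT-shARF and 64.4 to 81.1 in ArfKO-shSCR, with no marker at 0 in the footprints of any group. Their part in the *Fos* result was not tested. In these bulk cultures, fewer cells of a type and less RNA per cell cannot be told apart.

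*Atf3*, with *Fos* and *Fosb* one of the members with the fewest reads, was the other gene called in ArfKO-shSCR. The gene spans bases 191170296 to 191218039 of chromosome 1 (GRCm38, minus strand). *Atf3* footprints were 2.60 and 5.42 CPM in WT-shSCR, 3.55 and 1.25 CPM in WT-shARF, and 0 and 0.985 CPM in ArfKO-shSCR. These come from 8 and 14, 10 and 6, and 0 and 5 reads, so that both ArfKO-shSCR libraries were below the other 4. The log2 fold change in ArfKO-shSCR was -2.97 ± 1.02 (edgeR adjusted p = 0.034), with an interval from -4.96 to -0.97. *Atf3* passed the filter on low counts only through WT-shSCR, and the call was lost with DESeq2 (-3.06, adjusted p = 0.11), with no filter (-2.94, adjusted p = 0.091) and with all 3 groups in one fit (-2.98, adjusted p = 0.058). Leaving out the first ArfKO-shSCR library gave -2.00 (adjusted p = 0.44) and leaving out the second -6.86 (adjusted p = 0.066), a value that depends on a count of 0. The macrophage markers given above moved in the same direction, and their part was not tested. *Atf3* RNA held 2 to 12 reads per library and was not tested.

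*Fosb* had few footprints for its RNA. Its RNA was 9.80 and 7.65 CPM in WT-shSCR, 9.55 and 6.89 in WT-shARF, and 12.01 and 10.8 in ArfKO-shSCR, while its footprints were at 0.589 to 2.497 CPM in the 6 libraries, from 2 to 12 reads. Both ArfKO-shSCR RNA values were the highest, but the log2 difference from WT-shSCR was 0.35 with an interval from -0.49 to 1.20. Its footprints were too low to be tested against WT-shSCR.

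**Figure D3:**
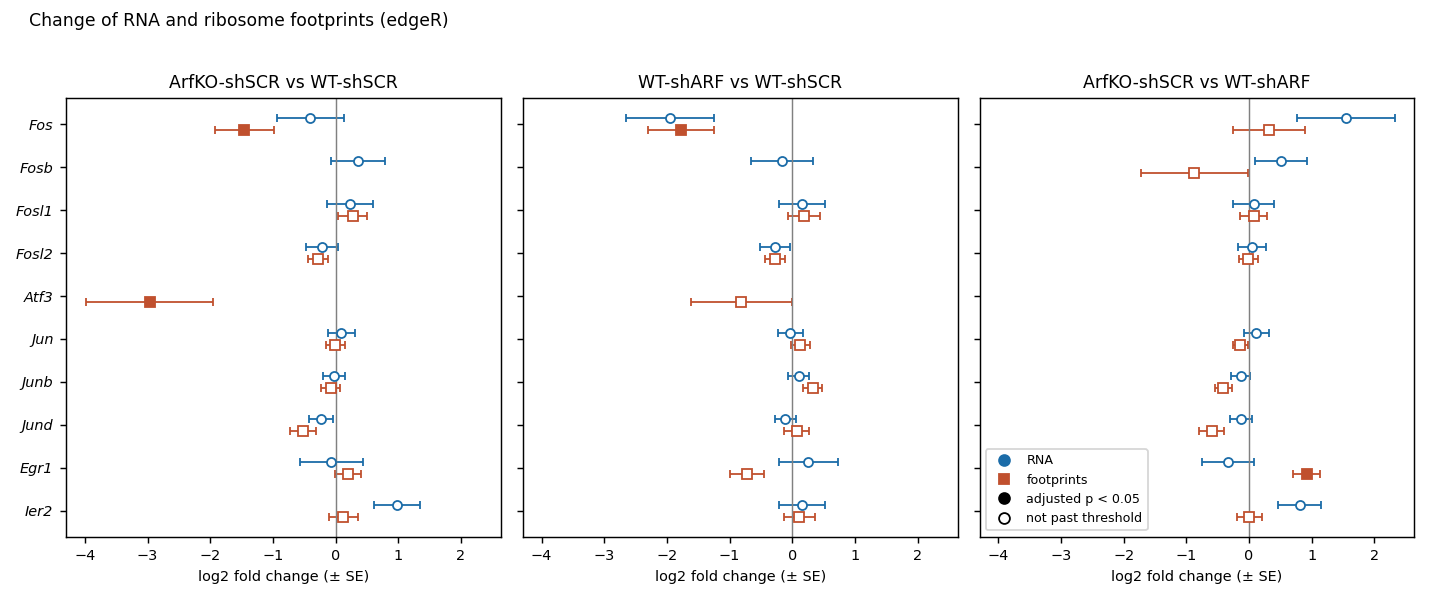
Log2 fold changes with standard errors from edgeR for RNA (circles) and ribosome footprints (squares) in the 3 comparisons. Filled symbols have an adjusted p under 0.05, and untested genes have no symbol. The filled symbols are *Fos* footprints in both comparisons with WT-shSCR, *Atf3* footprints in ArfKO-shSCR and *Egr1* footprints between ArfKO-shSCR and WT-shARF.

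*Egr1*, the zinc finger immediate early factor, had the highest TE level of the members in WT-shSCR and ArfKO-shSCR and was the one member called between ArfKO-shSCR and WT-shARF with the filter used here. The gene spans bases 34859823 to 34864984 of chromosome 18 (GRCm38, plus strand). *Egr1* footprints were 31.5 and 34.9 CPM in WT-shSCR, 22.7 and 18.1 CPM in WT-shARF, and 37.5 and 40.4 CPM in ArfKO-shSCR, from 64 to 205 reads per library. The 3 groups did not overlap, with WT-shARF lowest and ArfKO-shSCR highest. Between ArfKO-shSCR and WT-shARF the log2 fold change was 0.92 ± 0.22 (edgeR adjusted p = 0.013), a 1.89-fold difference, and DESeq2 also called it (0.91, adjusted p = 0.036). EdgeR did not call it without the first or the second WT-shARF library, or without the second ArfKO-shSCR library. Without either WT-shARF library nearly all other genes lost their calls too, so that loss is not particular to *Egr1*. Against WT-shSCR, the differences were 0.20 ± 0.21 in ArfKO-shSCR (edgeR adjusted p = 0.58) and -0.72 ± 0.28 in WT-shARF (edgeR adjusted p = 0.088), and neither passed. Macrophage markers moved the other way between these groups, with 330.8 to 408.6 CPM of footprints in WT-shARF and 64.4 to 81.1 CPM in ArfKO-shSCR. The 8 epithelial or mesothelial markers moved with *Egr1*. They summed to 72.1 to 95.9 CPM of footprints in WT-shARF and 187.8 to 188.8 CPM in ArfKO-shSCR, with none at 0, and the part of either set was not tested.

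*Egr1* RNA gave a different order. It was 10.9 and 5.10 CPM in WT-shSCR, 10.1 and 10.2 in WT-shARF, and 9.10 and 6.92 in ArfKO-shSCR, and the WT-shSCR replicates spanned the other groups. The RNA difference between ArfKO-shSCR and WT-shARF was -0.34 ± 0.42, opposite in sign to the footprints. In the test of TE itself the difference was 1.25 ± 0.43, with an adjusted p = 0.45 (edgeR), so it did not pass. *Egr1* RNA held 8 to 43 reads per library.

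*Ier2*, the small nuclear protein gene, had the highest RNA log2 difference of the members in ArfKO-shSCR against WT-shSCR. *Ier2* RNA was 14.3 and 13.4 CPM in WT-shSCR, 17.0 and 14.7 in WT-shARF, and 18.6 and 37.2 in ArfKO-shSCR. Both ArfKO-shSCR libraries were the highest, and the second was far above the first. The log2 difference from WT-shSCR was 0.97 ± 0.36 (edgeR adjusted p = 0.11), which did not pass, while without the first ArfKO-shSCR library it did (1.40, adjusted p = 0.0058). *Ier2* footprints did not follow, at 31.5 and 27.9, 33.1 and 31.8, and 33.7 and 32.7 CPM in the same order, a log2 difference of 0.13 with an interval from -0.32 to 0.57. Its TE difference was -0.88 ± 0.43 (edgeR adjusted p = 0.73).

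Counted over the class, footprints gave 2 calls among the 9 members tested in ArfKO-shSCR against WT-shSCR (*Fos* and *Atf3*, both lower), where 18.5% of 10737 genes were called. WT-shARF against WT-shSCR gave 1 of 9 (*Fos*, lower) against 11.1% of 10307 genes, and ArfKO-shSCR against WT-shARF gave 1 of 9 (*Egr1*, higher) against 8.23% of 10941 genes. The share called among the members was near that of all genes. *Atf3* entered the test only through WT-shSCR, the group in which it was high, so the filter itself favored a lower value and its call is no support for that count. *Fosb* was not tested in the first pair of comparisons and *Atf3* not in the last, and DESeq2 called 0, 0 and 1 in the same order.

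RNA gave 0 calls with edgeR among 9 members tested in each comparison, where 7.93%, 7.28% and 2.57% of all genes were called. DESeq2 gave 0 as well, but it left the adjusted p of some members missing, so it could not call them. In WT-shARF against WT-shSCR these were *Fos*, *Fosb*, *Fosl1*, *Egr1* and *Ier2*, and between ArfKO-shSCR and WT-shARF *Fos*, *Fosb* and *Egr1*. At an unadjusted p under 0.05, edgeR had 1 of 9 members in each comparison, *Ier2*, *Fos* and *Ier2*, where 22.3%, 21.1% and 16.4% of all genes had one. TE gave 0 calls with either tool among 9, 10 and 10 members, where 0.194%, 0.0354% and 0.043% of all genes were called. Unadjusted, 0, 0 and 2 members had a p under 0.05 in TE, the last being *Egr1* and *Ier2*, where 6.83%, 6.65% and 7.57% of all genes had one. The median log2 change of the tested members lay between -0.08 and 0.07 for RNA and footprints, where the median of all genes was within 0.01 of 0. The median TE difference of the tested members was -0.13 in ArfKO-shSCR and 0.11 in WT-shARF against WT-shSCR, and -0.37 in ArfKO-shSCR against WT-shARF, with 8 of 10 members below 0. The medians over all genes were -0.04, 0.01 and 0.00 in the same order.

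**Figure D4:**
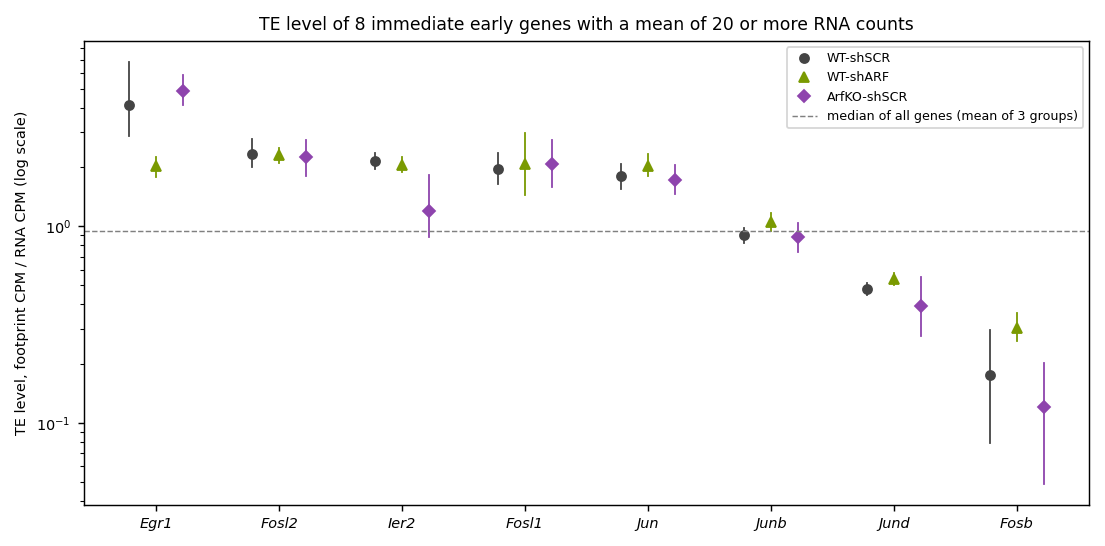
TE level (footprint CPM over RNA CPM of the group means, log axis) of 8 members with a mean of at least 20 RNA counts, by group. Lines span the 4 pairings of 1 ribosome profiling with 1 RNAseq library. *Egr1* is highest and *Fosb* lowest in WT-shSCR, and the dashed line marks the median of all genes.

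The class spanned nearly the whole range of TE levels. In WT-shSCR the TE level, footprint CPM over RNA CPM, was 4.14 for *Egr1*, the 99.4th percentile of 9052 genes, and 0.175 for *Fosb*, at percentile 4.21, where the median gene had 0.931. *Fosl2* (2.33), *Ier2* (2.14), *Fosl1* (1.95) and *Jun* (1.80) lay between the 87.7th and the 94.4th percentile, and the ranges over library pairings of these 4 genes overlapped. *Junb* was near the median at 0.896, and *Jund* was at 0.478, percentile 15.3. *Jund*, *Junb* and *Jun*, all single-exon genes of similar coding length, thus had separate TE levels in WT-shSCR, with ranges of 0.444 to 0.512, 0.817 to 0.977 and 1.55 to 2.07 over the pairings.

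The order was similar in the other groups. *Jund* was at 0.537 in WT-shARF and 0.394 in ArfKO-shSCR, and *Fosb* at 0.303 and 0.121. *Egr1* was at 2.01 in WT-shARF, where *Fosl2*, *Fosl1*, *Ier2* and *Jun* matched or passed it, and at 4.86 in ArfKO-shSCR. *Ier2* was at 1.19 in ArfKO-shSCR, from 2.14 in WT-shSCR. These levels are group means over 2 replicates with no test, and RNAseq fragments and footprints were sequenced as separate libraries. *Fos* and *Atf3* had too few RNA reads for a TE level.

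Other immediate early and delayed serum response genes, a list of 28 that includes nuclear receptors, phosphatases and secreted factors, gave calls only in the lower direction against WT-shSCR. In footprints of ArfKO-shSCR, 0 rose and 7 fell of 25 tested, where 9.57% of all genes were called higher and 8.95% lower. *Btg2*, an antiproliferative gene and p53 target, went from 49.0 to 18.4 CPM (log2 fold change -1.45 ± 0.23). *Dusp1*, a phosphatase of MAP kinases, fell by 0.80 on the log2 scale, *Ptgs2*, the inducible cyclooxygenase, by 0.49, and *Ctgf*, a secreted matrix protein, by 0.35. The median of the 25 was -0.13 and that of all genes was -0.00. DESeq2 called 6.

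In footprints of WT-shARF, 0 rose and 7 fell of 25 tested, where 5.63% of all genes were called higher and 5.5% lower. *Ptgs2* went from 1129 to 411.2 CPM (-1.47 ± 0.08), *Maff*, a small Maf factor, from 61.2 to 26.1 CPM (-1.21 ± 0.22), *Dusp1* from 147.7 to 96.4 CPM (-0.63 ± 0.14) and *Btg2* from 49.0 to 26.3 CPM (-0.95 ± 0.26). DESeq2 called 3 of these 25 genes. The genes called lower in both were *Btg2*, *Dusp1*, *Maff* and *Ptgs2*, in comparisons that share the WT-shSCR libraries. In RNA the counts were 0 higher and 3 lower of 26 in ArfKO-shSCR (3.99% of all genes were called lower), led by *Rhob* (-0.71), a small GTPase, and 0 higher and 8 lower of 25 in WT-shARF (4.17% of all genes), led by *Ptgs2* (-1.06) and *Ier3* (-1.27). DESeq2 called 0 of the 26 in ArfKO-shSCR, where 5 had an unadjusted p under 0.05 (edgeR) and 22.3% of all genes had one. In WT-shARF DESeq2 called 5 of the 25. The macrophage markers moved in the same direction, and their part was not tested.

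Between ArfKO-shSCR and WT-shARF, footprints of this list gave 3 higher and 2 lower of 27 tested, where 3.93% and 4.3% of all genes were called. *Ptgs2* (0.97 ± 0.07), *Plaur*, the urokinase receptor (0.41 ± 0.10), and *Nr4a1*, a nuclear receptor (1.32 ± 0.34), were higher, as *Egr1* was, and *Ctgf* (-0.33 ± 0.04) and *Rhob* (-0.52 ± 0.11) were lower. *Nr4a1* footprints averaged 18.7 CPM in WT-shSCR, 8.27 in WT-shARF and 20.5 in ArfKO-shSCR. TE gave 0 calls for the list in all 3 comparisons with edgeR and with DESeq2. Of 26, 26 and 27 tested, 1, 3 and 3 genes had an unadjusted p under 0.05 (edgeR). Of all genes, 6.83%, 6.65% and 7.57% had one.

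**Figure D5:**
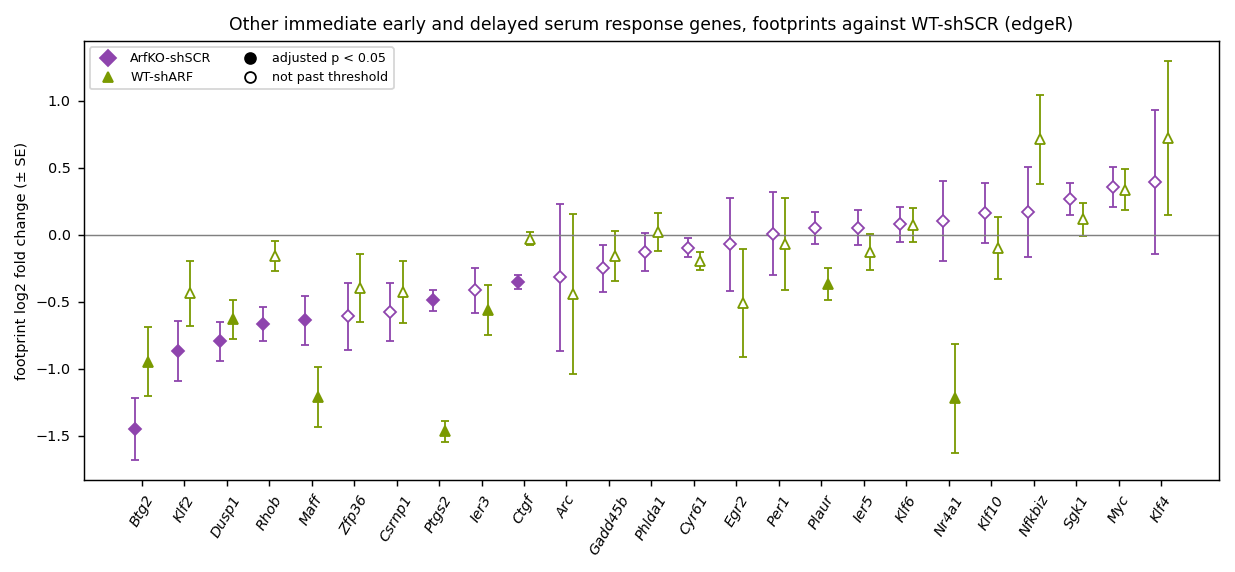
Footprint log2 fold changes against WT-shSCR with standard errors (edgeR) for 25 other immediate early and delayed serum response genes, ordered by the ArfKO-shSCR value. Diamonds are ArfKO-shSCR, triangles WT-shARF, and filled symbols have an adjusted p under 0.05. All filled symbols lie below 0, from -0.35 for *Ctgf* to -1.47 for *Ptgs2*.

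Genes upstream of the class gave 0 to 2 edgeR calls per comparison in RNA, footprints or TE. Of 18 upstream regulators (serum response factor, its Elk and Mkl partners, Creb1, MAP kinases and their kinases, Egfr), RNA gave 0 calls in ArfKO-shSCR with edgeR and with DESeq2, with 3 at an unadjusted p under 0.05 (edgeR). Of all genes, 7.93% were called there and 22.3% had such a p. In WT-shARF RNA gave 1 call, *Mapkapk2*, a kinase downstream of p38 that acts on mRNA stability, which rose by 0.82 ± 0.15. Unadjusted, 5 of 18 had a p under 0.05 (edgeR), where 21.1% of all genes had one and 7.28% were called. In footprints, *Map2k1*, the kinase that activates ERK, fell by 0.52 on the log2 scale in ArfKO-shSCR and *Rps6ka1* by 1.15, the 2 calls of 18, where 8.95% of all genes were called lower and DESeq2 called *Map2k1* alone. In footprints of WT-shARF *Mapkapk2* rose by 0.61 while *Egfr* fell by 0.58, with 5.63% of all genes called higher and 5.5% lower. At an unadjusted p under 0.05, footprints had 5 of 18 in ArfKO-shSCR and 9 of 18 in WT-shARF (edgeR). Of all genes, 30% and 23.5% had one. TE gave 0 calls with either tool and 0 unadjusted in each comparison, where 6.83%, 6.65% and 7.57% of all genes had an unadjusted p under 0.05.

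Of the other bZIP genes, which could share AP-1 partners, footprints in ArfKO-shSCR gave 0 higher and 4 lower of 20, where 9.57% and 8.95% of all genes were called, among them *Creb3* (-0.84 ± 0.15) and *Nfe2l1* (-0.55 ± 0.13). In WT-shARF, *Maff* was the single call of 20, lower, where 5.5% of all genes were called lower. RNA of *Atf4*, the stress response factor, rose by 0.58 ± 0.17 in ArfKO-shSCR, where DESeq2 called 0 of the list, and *Creb3* RNA fell by 0.57 on the log2 scale. They were the 2 edgeR calls of 17 tested in RNA there, where 7.93% of all genes were called. Unadjusted, 7 of 17 had a p under 0.05 (edgeR), where 22.3% of all genes had one.

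Proteins that bind AU-rich elements and remove poly(A) tails are the known route by which *Fos*-like mRNAs decay. Of 14 in the list, footprints in ArfKO-shSCR gave 4 higher and 0 lower, namely *Hnrnpd* (0.77 ± 0.12), *Khsrp* (0.35 ± 0.11), *Elavl1* (0.35 ± 0.11) and *Cnot1* (0.40 ± 0.14), where 9.57% of all genes were called higher. *Hnrnpd* and *Khsrp* are known to promote decay and *Elavl1* to stabilize, and DESeq2 called 2, *Hnrnpd* and *Khsrp*. RNA of *Zfp36l2*, a decay factor of the tristetraprolin family, rose by 1.14 ± 0.24 in ArfKO-shSCR, from 28.6 to 64.3 CPM. It was the 1 RNA call of 14 there, where 7.93% of all genes were called. In WT-shARF, RNA of *Zfp36*, tristetraprolin itself and also an immediate early gene, fell by 0.75 on the log2 scale, and *Tia1* footprints fell by 1.07. Each was the single edgeR call of the list, where 4.17% and 5.5% of all genes were called lower. DESeq2 called 0 in both. Unadjusted, 6 and 4 of 14 had a p under 0.05 (edgeR), where 21.1% and 23.5% of all genes had one.

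Genes often used as readouts of AP-1 or EGR1 moved in both directions. Of 14 tested in footprints of ArfKO-shSCR, 1 was higher and 4 were lower, where 9.57% and 8.95% of all genes were called. *Mmp3*, a matrix metalloprotease, went from 8.31 to 22.7 CPM (1.45 ± 0.39), and *Timp1*, a metalloprotease inhibitor, from 1839 to 1195 CPM (-0.66 ± 0.07). *Hmox1*, heme oxygenase (-1.13 ± 0.13) and *Mmp9* (-1.84 ± 0.44) were lower. In WT-shARF 2 were higher and 3 lower of 14, where 5.63% and 5.5% of all genes were called. *Plau*, urokinase, went from 274.8 to 119.0 CPM (-1.22 ± 0.11), while *Ccnd1*, cyclin D1, went from 214.4 to 375.0 CPM (0.79 ± 0.10). *Mmp9*, *Hmox1* and *Plau* are also made by macrophages, whose markers differed between the groups as given above, and their part was not tested.

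Across the 12 libraries the members did not vary as a unit. Over the 7 members with a mean of at least 20 counts, Pearson's r of log2(CPM + 1), centred within each assay, ran from -0.55 to 0.63 over the 21 pairs with a median of -0.06, and 7 pairs were above 0. The genes most like a member among 9432 genes were other genes throughout. For *Jun* these were *Timm8a1* (r = 0.90) and *Pla2g12a* (r = 0.89), for *Junb* *Tubg1* (r = 0.90) and *Nfkbia* (r = 0.89), for *Fosl2* *Drap1* (r = 0.95) and *Znf512b* (r = 0.91), and for *Egr1* *Plekha7* (r = 0.91) and *Hipk1* (r = 0.89). The points of these correlations share library depth and 3 groups, and the highest r of so many is high in any such search.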

How the data were processed

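RNA and ribosome footprints were counted per gene in 12 libraries. Per the methods and labels, adapters were clipped, molecular identifiers extracted with UMI-tools (no removal of duplicates is named), reads of rRNA and other noncoding RNA removed with Bowtie2, the rest aligned to mm10 with TopHat and counted on coding sequences with HTSeq. The authors deposited raw counts per gene, without normalization. Footprints were made with RNase T1, and RNAseq used total RNA broken by alkaline hydrolysis. Intervals cover counting error and replicate spread only.

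From the counts, edgeR 4.0.16 (R 4.3.3) computed TMM factors, kept genes by filterByExpr and ran its quasi-likelihood F test, over 4 libraries for RNA or footprints and over 8 for TE, the interaction of assay and condition. Genes with a Benjamini-Hochberg adjusted p under 0.05, adjusted over all genes tested, were called. Changes are log2 fold changes ± SE, and intervals are 95%. ArfKO-shSCR against WT-shARF shares libraries with both other comparisons. With 2 replicates per group the smallest exact permutation p is 0.33. The fit was checked on simulated counts. Transcript features came from GENCODE M21.

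The members and gene lists were chosen with earlier results of these data known. All members were named in every comparison, and of each list at most the 4 called genes with the smallest adjusted p in a comparison. *Nr4a1* and the footprints of *Mmp3* and, in ArfKO-shSCR, of *Maff* fell outside this rule and were named after their values were seen. The result of 1 called gene of a list is not reported here. Likeness used the 2 genes with the highest r. Alternatives were DESeq2 1.42.0, RLE factors, testing all genes with a read, requiring 10 counts in each library, fitting the 3 groups together, a replicate block and leaving out each library. Replicates differed by more than sampling noise (chi-square of 3.77 to 6.97 per gene).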

Additional observations from a re-analysis of the deposited data

Results flagged for a closer look

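*Egr1* footprints stood out because the effects of the *Arf* knockout and of the library labelled WT-shARF, each against WT-shSCR, had opposite signs and differed in a test of the difference itself. The knockout effect was 0.20 ± 0.21 and the WT-shARF effect was -0.72 ± 0.28 on the log2 scale, and the difference between them, which equals the change from WT-shARF to ArfKO-shSCR, was 0.92 ± 0.22 (adjusted p = 0.013 by edgeR's quasi-likelihood test, 0.036 by DESeq2). Footprints were higher in both ArfKO-shSCR libraries than in both WT-shARF libraries. Since *Cdkn2a* counts were high in the libraries labelled WT-shARF, the difference is one between groups by label.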

How the results depend on the processing

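Of the 83 changes of single members, 49 kept their sign in every setting, and 73 kept their side of the threshold. The counts of called members moved as follows. DESeq2 gave 0 in footprints of ArfKO-shSCR and 0 of WT-shARF against WT-shSCR, where edgeR gave 2 and 1. Over RNA, footprints and TE, DESeq2 left 36 adjusted p of members missing, and those changes could not be called by it. In ArfKO-shSCR the count was 1, *Fos*, with no filter, with at least 10 counts in every library (where *Atf3* is not tested) and with all 3 groups in one fit. In footprints of ArfKO-shSCR against WT-shARF it was 3 with no filter and 3 with the replicate block, *Egr1*, *Junb* and *Jund* in both. In RNA of WT-shARF the replicate block gave 1, *Fos*. The replicate block changed no other count. The correlation of same-numbered deviations ran from -0.02 to 0.03 between groups of an assay and from 0.03 to 0.07 between assays within a group. With counting noise in each gene, such values cannot tell whether the replicate numbers pair the libraries. Leaving out 1 library moved the count between 0 and 1 in each RNA comparison and in footprints of ArfKO-shSCR and of WT-shARF against WT-shSCR, and between 0 and 3 in footprints of ArfKO-shSCR against WT-shARF. The lone remaining library of a group was taken to vary like the others. With 1 WT-shSCR library left, footprint calls in ArfKO-shSCR against WT-shSCR were lost over all genes. With 1 WT-shARF library left, so were nearly all footprint calls of ArfKO-shSCR against WT-shARF. The losses among members in those fits are therefore not particular to them. Without the second WT-shARF library, *Fos* RNA passed at a value that depends on a count of 0. The counts in TE stayed at 0 in every setting.

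Leaving out 1 library at a time turned the sign of these log2 changes, none of them called, with these ranges. In RNA of ArfKO-shSCR against WT-shSCR they were *Egr1* -0.44 to 0.63, *Fosl2* -0.38 to 0.025, *Jun* -0.076 to 0.25 and *Junb* -0.14 to 0.084. In RNA of WT-shARF against WT-shSCR they were *Egr1* -0.12 to 0.97, *Fosb* -0.38 to 0.12, *Fosl1* -0.17 to 0.36 and *Jun* -0.20 to 0.11. In RNA of ArfKO-shSCR against WT-shARF they were *Fosl1* -0.14 to 0.39, *Fosl2* -0.057 to 0.15, *Jun* -0.053 to 0.29 and *Jund* -0.32 to 0.060. In footprints of ArfKO-shSCR against WT-shSCR they were *Jun* -0.17 to 0.21 and *Junb* -0.20 to 0.043. In footprints of WT-shARF against WT-shSCR they were *Fosl1* -0.074 to 0.40, *Jun* -0.037 to 0.32 and *Jund* -0.020 to 0.16. In footprints of ArfKO-shSCR against WT-shARF they were *Fosl1* -0.14 to 0.34, *Fosl2* -0.21 to 0.17 and *Ier2* -0.037 to 0.045. In TE of ArfKO-shSCR against WT-shSCR they were *Egr1* -0.46 to 0.62, *Fosb* -1.76 to 0.45, *Fosl1* -0.15 to 0.22, *Fosl2* -0.32 to 0.10, *Jun* -0.29 to 0.14 and *Junb* -0.20 to 0.094. In TE of WT-shARF against WT-shSCR they were *Atf3* -1.74 to 0.038, *Fos* -0.48 to 5.57, *Fosl1* -0.24 to 0.34, *Fosl2* -0.23 to 0.15, *Ier2* -0.19 to 0.062 and *Jun* -0.0028 to 0.37. In TE of ArfKO-shSCR against WT-shARF they were *Fosl1* -0.32 to 0.29 and *Fosl2* -0.26 to 0.12.

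Without leaving out a library, a sign turned in these cases. The replicate block gave 0.0032 for *Egr1* RNA and 0.0026 for *Jun* footprints in ArfKO-shSCR against WT-shSCR, and no filter gave 0.030 for *Jun* footprints and 0.042, 0.00 and 0.042 for the TE of *Fosl2*, *Jun* and *Junb* there. Between ArfKO-shSCR and WT-shARF, DESeq2 gave -0.0002 for *Ier2* footprints, and at least 10 counts in every library gave -0.026 for *Fosl1* TE. The cause of these moves was not tested, and none of these members was called. Read counts limit *Fos*, *Fosb* and *Atf3* most, with 0 to 55 reads per library.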
